A study of Mus musculus and Homo sapiens with 54 samples.

Results

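The wide H2BK120ub1 intervals of HCT116 cells were chosen by their width alone: every interval in the deposited list whose end minus start exceeded 10 kb was taken. They numbered 3067 of 93123, or 3.29%, and held 61.3 of the 175.6 Mb in the list, or 34.9% of its length. HCT116 is an established human colorectal carcinoma line, used here as wildtype cells. The series of 54 samples is chromatin immunoprecipitation and sequencing (ChIP-seq) that follows histone H2A and H2B marks in mouse embryonic stem (ES) cells and HCT116. For HCT116 it has 2 H2BK120ub1 libraries and 2 inputs of cells labelled as having no treatment, 2 H2BK120ub1 libraries and 2 inputs of cells given 10 µM triptolide, an inhibitor of transcription, for 20 min, and 2 H2A.Z libraries labelled as having no treatment. For the mouse ES line E14, the series has H2BK120ub1 libraries with no treatment in their titles and 2 with triptolide at 10 µM for 10 min. The mouse H2BK120ub1 list, used in 1 comparison below, names no treatment either. The study describes the controls of triptolide as given the same volume of the solvent DMSO. The deposited H2BK120ub1 list is 1 list for the cell line, without a treatment in its name, and which libraries entered it is not given in the sources used here. It gives a chromosome, a start and an end for each interval, with no height, score or read count. Depth and replicate error therefore could not be carried into any value below, and all comparisons are descriptions without a test. Intervals in brackets are 95% Wilson intervals. They cover counting error only and treat neighbouring intervals as independent, which they are not.

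H2BK120ub1 is a single ubiquitin on lysine 120 of histone H2B. It is attached by the RNF20-RNF40 ligase while RNA polymerase II moves through a gene, it is removed quickly by deubiquitinases, and it favours methylation of lysines 4 and 79 of histone H3. It is therefore known as a mark of transcribed gene bodies. H2A.Z is a variant of histone H2A that replaces it in the nucleosomes beside gene starts and at enhancers.

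The labelled cell type was checked against marker genes that carried an H2BK120ub1 interval of any width. Of 20 colon epithelial markers, 14 did, against 1 of 10 fibroblast, 0 of 7 endothelial, 0 of 10 blood and 3 of 10 neuronal markers. Over all 19320 protein-coding genes on these chromosomes the share was 46.9%. Any overlap counted: among marked colon epithelial markers over 10 kb, coverage ran from 0.05% of VIL1 to 75.4% of ST14. CDX1, CDH17, HNF4A and TJP1 held no interval. The neuronal markers SYT1, TUBB3 and GAD1 were covered over 18.9%, 86.3% and 0.22%, and the fibroblast marker COL1A1 over 65.7%. The counts are therefore a weak check of the label. A wide interval lay in 1 of 10 colon epithelial markers over 10 kb, ST14, a membrane serine protease (22.7 kb), and in none of the other 4 marker sets. The 10% of the colon epithelial markers was thus not above the 14.5% of all protein-coding genes over 10 kb.

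The sequence at the boundaries of 3 wide intervals is shown first, because CpG content, which was not used to choose the intervals, changed from the gene start to the body of the interval. The 3 were the widest that began within 3 kb downstream of the start of a protein-coding gene with an H2A.Z peak within 1 kb of that start. Windows of 120 bases are given just before the gene start, just inside the 5′ edge of the interval and, for TCF7L2 and CREBBP, just inside its 3′ edge, 5′ to 3′ on the strand of the gene (hg38), with each CpG in capitals. Windows were moved away from the start or edge until they met no annotated exon, by at most 319 bases. TCF7L2 encodes a transcription factor of the WNT pathway, and its 120.1 kb interval began 1.70 kb past the gene start. The 3 windows of TCF7L2 were chr10:112950127-112950246, chr10:112951947-112952066 and chr10:113071931-113072050 (plus strand).
TCF7L2, before the gene start: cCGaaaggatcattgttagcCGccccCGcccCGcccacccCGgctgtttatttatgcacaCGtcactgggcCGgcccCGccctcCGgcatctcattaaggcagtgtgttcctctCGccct
TCF7L2, inside the 5′ edge: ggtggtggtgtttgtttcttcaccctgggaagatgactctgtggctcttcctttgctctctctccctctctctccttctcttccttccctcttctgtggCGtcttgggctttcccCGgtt
TCF7L2, inside the 3′ edge: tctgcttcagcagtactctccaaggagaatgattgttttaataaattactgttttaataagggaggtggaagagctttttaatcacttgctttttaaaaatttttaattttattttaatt

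TCF7L2 had 10 CpGs in the window before its start, 2 inside the 5′ edge and 0 inside the 3′ edge. DYRK1A encodes a dual-specificity kinase, and its 115 kb interval began 0.537 kb past the start. The windows of DYRK1A were chr21:37366552-37366671 and chr21:37367629-37367748 (plus strand).
DYRK1A, before the gene start: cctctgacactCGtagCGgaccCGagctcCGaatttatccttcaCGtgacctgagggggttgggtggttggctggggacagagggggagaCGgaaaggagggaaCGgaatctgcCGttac
DYRK1A, inside the 5′ edge: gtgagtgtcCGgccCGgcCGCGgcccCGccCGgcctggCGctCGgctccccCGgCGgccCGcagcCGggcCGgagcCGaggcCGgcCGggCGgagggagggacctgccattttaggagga

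DYRK1A kept a CpG-rich window inside the 5′ edge, with 17 CpGs. It had 8 in the window before the start. CREBBP encodes the histone acetyltransferase CBP, and its 102.2 kb interval began 0.752 kb past the start. The 3 windows of CREBBP were chr16:3880714-3880833, chr16:3879712-3879831 and chr16:3777758-3777877 (minus strand).
CREBBP, before the gene start: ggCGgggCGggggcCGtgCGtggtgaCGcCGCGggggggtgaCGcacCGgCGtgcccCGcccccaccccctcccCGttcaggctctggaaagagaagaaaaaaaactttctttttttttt
CREBBP, inside the 5′ edge: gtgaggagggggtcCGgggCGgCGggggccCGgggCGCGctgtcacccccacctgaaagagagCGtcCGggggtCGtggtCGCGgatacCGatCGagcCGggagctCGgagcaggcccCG
CREBBP, inside the 3′ edge: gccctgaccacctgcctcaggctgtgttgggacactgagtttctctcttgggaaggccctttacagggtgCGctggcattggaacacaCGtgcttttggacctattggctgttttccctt

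CREBBP had 12 CpGs before the start, 16 inside the 5′ edge and 2 inside the 3′ edge.

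The 5′ edge was thus poorer in CpG than the gene start in TCF7L2 and richer in CREBBP and DYRK1A. Over all genes, in windows of 1000 bp, CpG content fell in the order of gene start, first 5′ edge and 3′ edge. The ratio of observed to expected CpGs had a median of 0.85 (quartiles 0.78 and 0.92) at the starts of 1963 protein-coding genes with a wide interval, 0.69 (0.33 and 0.85) at the 5′ edge of the first wide interval in each of 2048 genes, 0.27 (0.19 and 0.37) at the 5′ edge of 1010 later wide intervals and 0.26 (0.18 and 0.35) at 3058 3′ edges. GC content followed, with medians of 66.9%, 57.1%, 41.5% and 42.0%. In the 500 bp outside the first 5′ edge the median CpG ratio was 0.76, and in the 500 bp inside it was 0.54. Gene starts with narrower intervals alone had a median CpG ratio of 0.79 and those with no interval 0.63. Over whole intervals, the wide ones had a median GC content of 41.9% and a CpG ratio of 0.27, beside 42.7% and 0.20 for the 90040 narrower intervals on chromosomes. These values were taken over stretches of unlike length, so the groups are not compared on 1 scale.

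The widths themselves follow from the rule and are given as a description. The middle wide interval spanned 15449 bp, with quartiles at 12222.5 and 22505.5 bp, and the middle one of the other 90056 intervals spanned 586 bp. Of the wide intervals, 958 exceeded 20 kb, 103 exceeded 50 kb and 9 exceeded 100 kb. The narrowest inside the rule were 10007 bp wide, in SBNO1 and in the lncRNA gene ENSG00000243155, and the widest outside it were 9999 bp, in CD2AP, and 9992 bp, in PPP2R5E. Neighbouring intervals in the list were never closer than 501 bp, and 77.7% of wide intervals [76.2 to 79.2] had a neighbour within 1 kb. The number over 10 kb thus moved with the joining distance: joining intervals within 1 kb of each other gave 4719 over 10 kb with 111 Mb, and joining those within 2 kb gave 5996 with 174.4 Mb.

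**Figure D1:**
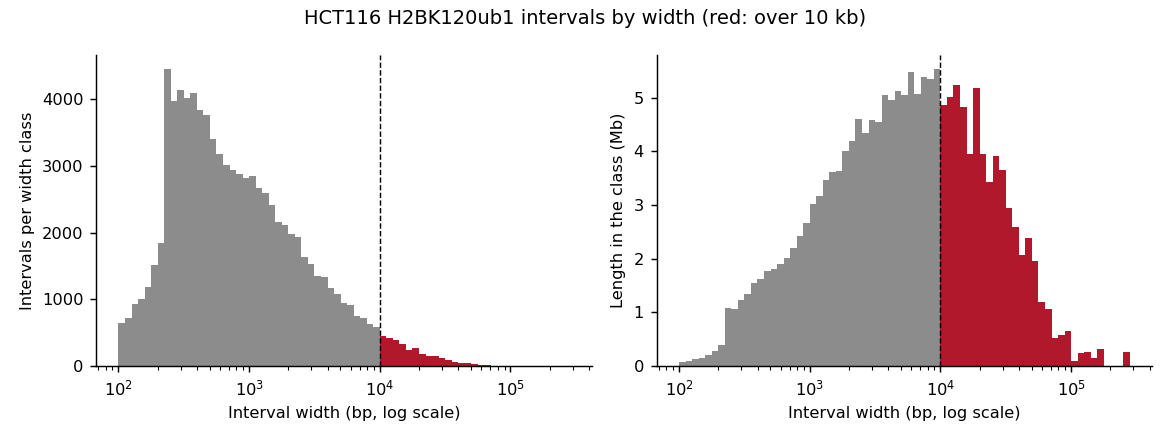
Number of H2BK120ub1 intervals (left) and their summed length in Mb (right) by width on a log scale, in classes of equal log width. Red classes lie over 10 kb: they hold 3.29% of the intervals and 34.9% of the length.

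Nearly all wide intervals lay in genes, most often in 1 protein-coding gene. At least 1 bp lay in a gene longer than 3 kb (GENCODE) for 3058 of 3067, or 99.7% [99.4 to 99.9], and for 97.5% [97.4 to 97.6] of the narrower intervals on chromosomes. The gene that shared most bp with an interval, called its main gene, was protein-coding for 3007, a lncRNA for 48 and a pseudogene for 3. After the 267.5 kb of PVT1, the widest in lncRNA genes were 45.5 kb in LINC-PINT, 44.03 and 40.08 kb in LINC00511 and 43.8 kb in MIR3667HG. A single gene over 3 kb was met by 2413 intervals, and 90.1% [89.0 to 91.1] of those with a gene lay wholly inside their main gene. ChIP-seq has no strand, so where genes overlap the interval could not be assigned between them. The 9 intervals with no such gene included 6 on chromosome 2, and the widest of these 9 was 52.6 kb (chr2:219752084-219804710), followed by 15.9 kb (chr2:219851709-219867654) and 13.96 kb (chr2:219835357-219849313) in the same neighbourhood.

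Exactly 2 protein-coding genes were met by 235 wide intervals. In 191 of them the genes lay on opposite strands, 141 with the plus-strand gene first (convergent) and 50 with the minus-strand gene first (divergent). The gene records overlapped in 152 of these 191 pairs, and in 16 one gene lay within the other. In the other intervals both genes were on the same strand, overlapping in 37 and apart in 7. A further 22 intervals met 3 or more. Examples chosen after the values were seen are the 62.0 kb interval that ran from UBE2R2, a ubiquitin-conjugating enzyme gene, into the end of UBAP2 (chr9:33877107-33939135, 69.8% and 28.1% of its length in the respective gene) and the 30.7 kb interval over TCF7 and SKP1 (chr5:134126089-134156827, 83.9% and 25.7%). TCF7 encodes a WNT transcription factor and SKP1 a subunit of SCF ubiquitin ligases.

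The 3058 intervals fell in 2048 main genes. Of these, 1439 had 1 wide interval, 379 had 2, 144 had 3 and 86 had 4 or more. Among the 13497 protein-coding genes whose canonical transcript exceeds 10 kb, 1963 (14.5%) were a main gene and 5177 held narrower intervals alone. A further 111 met a wide interval that had another main gene, and 6246 held none. Wide intervals covered a median of 8.33% of the 111 transcripts, and 37.3% of those of 10 to 25 kb. Main genes were long, which the rule itself favours: their canonical transcripts had a median of 53.9 kb and 12 exons, against 39.2 kb and 10 exons for all 13497. By chromosome, wide intervals per 100 such genes ranged from 6.74 on X and 14.6 on 19 to 31.3 on chromosome 2.

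The 10 widest intervals lay in 9 genes. The widest, 267.5 kb, covered 68.1% of the lncRNA gene PVT1 (chr8:127835499-128102997), starting 41.0 kb past its start. SEPTIN9, which encodes a septin GTPase of the cytoskeleton, held 165.9 kb (chr17:77325245-77491104). ANKRD11, whose product is an ankyrin-repeat regulator of chromatin, held 160.7 kb (chr16:89268631-89429301), and this interval ended 1.00 kb before the gene end. In PVT1 an earlier wide interval of 39647 bp, from just past the start, filled most of the stretch before, and in ANKRD11 2 intervals of 26849 and 31813 bp, the first from 175 bp past the start, did so. In SEPTIN9 the earlier wide interval was 13579 bp long and began 22289 bp past the start.

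SND1, which encodes a Tudor-domain nuclease, held 144.2 kb (chr7:127680977-127825199). AGAP1, an Arf GTPase-activating protein gene, held 140.1 kb (chr2:235526225-235666279), or 22.0% of a 637.8 kb transcript. CAPZB, the gene of an actin-capping subunit, was covered from 0.05 kb past its start over 88.0% of its length (129.2 kb, chr1:19356319-19485489). TCF7L2 held both the seventh and the tenth widest interval (120.1 kb, chr10:112951947-113072050, and 98.3 kb, chr10:113072609-113170942), and the pair covered 99.0% of the transcript. DYRK1A (115 kb, chr21:37367310-37482329) and CREBBP (102.2 kb, chr16:3777758-3879961) were covered over 72.1% and 65.7% from near the start. An H2A.Z peak lay within 1 kb of the start in 6 of these 9 genes, and not in SEPTIN9, ANKRD11 and CAPZB. Over all 2048 main genes the share was 73.4%, so these few genes do not stand apart.

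**Figure D2:**
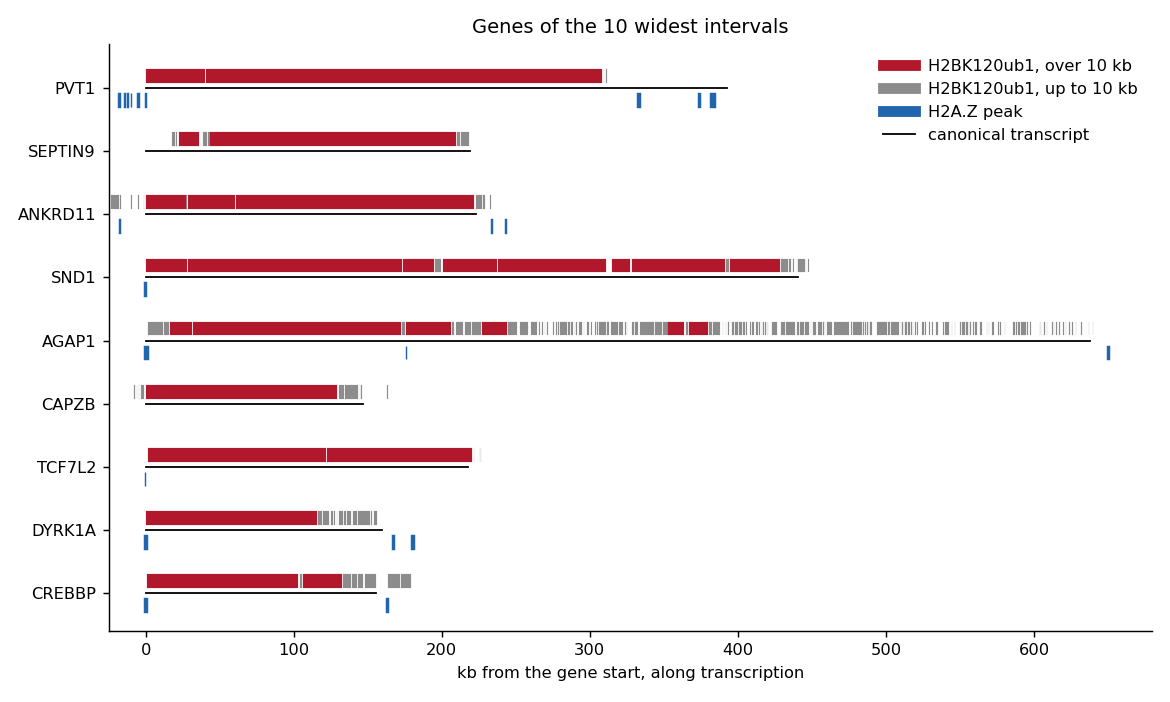
The 9 genes of the 10 widest intervals, drawn along transcription in kb from the gene start: canonical transcript (black line), H2BK120ub1 intervals over 10 kb (red) and up to 10 kb (grey), and H2A.Z peaks (blue, drawn with a minimum line thickness so that short peaks stay visible). Red blocks fill TCF7L2 from end to end, while in AGAP1 they give way to short grey intervals along the 637.8 kb transcript.

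Several long genes were filled by a row of wide intervals. ZFAND3, which encodes a zinc finger protein, had the most, 11, from 11.7 to 51.6 kb wide, which together covered 82.2% of a 334.9 kb transcript. SND1 had 9 that covered 93.1% of 440.4 kb. PTK2, the gene of focal adhesion kinase, also had 9, which covered 62.2% of 343.4 kb, and 87.0% was covered when its narrower intervals were added. Over all 1963 protein-coding main genes, wide intervals covered a median of 46.9% of the transcript (quartiles 25.04% and 76.13%), and intervals of any width 78.5% (59.5% and 91.2%). In 459 genes (23.4%) wide intervals covered at least 80%, and in 359 (18.3%) less than 20%. Coverage fell with length, from a median of 88.1% in transcripts of 10 to 25 kb to 20.0% in those over 100 kb, where a wide interval needs a smaller share of the gene.

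Per kb, wide intervals began most often in the first kb of the gene. The 5′ edge lay 0 to 1 kb past the start of the canonical transcript for 1118 of 3058 intervals, or 36.6% [34.9 to 38.3], and 0 to 5 kb past it for 45.5% [43.7 to 47.3]. It lay before the start in 29 intervals by up to 1 kb and in 61 by more. Some of these lay wholly upstream of the canonical transcript, since main genes were assigned by the whole gene record. An example chosen after the values were seen is that of PFKFB3 (chr10:6145110-6183586). Another 772 began 10 to 50 kb past the start and 619 over 50 kb past it. The start itself lay inside 51 wide intervals, or 1.67% [1.27 to 2.19]. That share depended on which start was taken: with the annotated start of the main gene nearest to the edge it was 22.9%, since alternative starts lie inside gene bodies, and the median distance of the 5′ edge from the start moved from 6147.5 to 208.5 bp.

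The first wide interval in each gene accounted for the peak near the start. Its 5′ edge lay a median of 572.5 bp past the start (quartiles 169 and 6899.5 bp), and 67.8% [65.8 to 69.8] began 0 to 5 kb past it. The 1010 later wide intervals began a median of 50801.5 bp past the start. Of 2046 first intervals in genes with an intron, 1103 (53.9%) began in intron 1, 625 (30.5%) before the end of exon 1 and 318 (15.5%) past intron 1. The median position was 304 bp past the end of exon 1. Of the 400 first intervals that began over 10 kb past the canonical start, 75 (18.8%) [15.2 to 22.9] had another annotated start of the same gene within 5 kb of their edge.

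The 5′ edge lay before the gene start in 2.94% [2.401 to 3.604] of wide intervals, and the 3′ edge at or past the gene end in 11.7% [10.6 to 12.9]. The 3′ edge lay before the gene end in 88.3% [87.1 to 89.4], and over 10 kb before it in 71.8% [70.2 to 73.4]. It fell within 1 kb of the end in 174 intervals and over 1 kb past it in 272, of which 92 had it over 5 kb past. Some of these intervals lay wholly past the end of the canonical transcript. An example chosen after the values were seen is that of ZNF124 (chr1:247139901-247150406). Both the start and the end were inside 20 intervals. Exons of the canonical transcripts made up 4.17% of the length of wide intervals in their main genes, so the rest was intron or belonged to other transcripts.

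Averaged along the 1963 protein-coding main genes, wide intervals covered 53.2% of the first 5% of the gene, 72.1% at 15 to 20% and 20.1% of the last 5%. Intervals of any width covered 72.5%, 88.0% and 46.5% at those places. In the last 500 bp before the start the coverage was 1.123% for wide intervals and 1.755% for all, below the 2.63% and 8.89% found 5 kb upstream. Past the gene end the coverage by wide intervals fell from 15.8% in the first 500 bp to 6.41% at 5 kb. Genes with narrower intervals alone had lower coverage along the gene, with 24.5% in the first bin, 36.6% in the second and 15.5% in the last. Both the height of these curves and, in shorter genes, the coverage of the middle of the gene follow in part from the rule, since an interval over 10 kb in a gene little longer than that must cover its middle.

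**Figure D3:**
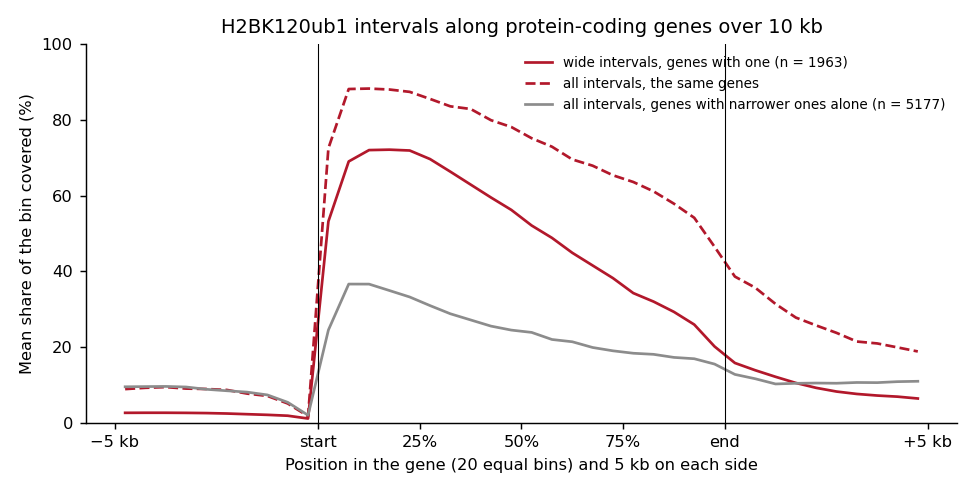
Mean share of each bin covered by intervals, in 20 equal bins of the gene and 10 bins of 500 bp on each side, for protein-coding genes over 10 kb. Wide intervals (red) reach 72.1% in the fourth bin and drop to 20.1% in the last, and both red curves are near 1 to 2% just before the start.

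H2A.Z, which played no part in the choice of intervals, was present at most starts of these genes and covered little of the intervals. A peak from the list of 64048 HCT116 H2A.Z peaks lay within 1 kb of the canonical start in 1503 of 2048 main genes, or 73.4% [71.4 to 75.3]. Among protein-coding genes over 10 kb, it did so for 74.6% [72.7 to 76.5] of the 1963 main genes, beside 59.9% of all 13497 genes, 79.2% [78.1 to 80.3] of those with narrower intervals alone and 39.3% [38.1 to 40.5] of those with none. The share was thus lower in genes without an interval, and not higher in genes with a wide one than in those with narrower ones. The genes without an interval include 1223 in stretches over 250 kb with no interval of either list, described below. Such stretches hold no H2A.Z peak by definition, which lowers the 39.3% and the 59.9%. In genes of 10 to 25 kb the shares were 62.4% with a wide interval and 72.0% with narrower ones alone. In those of 25 to 50 kb they were 68.8% and 78.6%, in those of 50 to 100 kb 78.0% and 84.1%, and in those over 100 kb 86.0% and 86.8%. The counting intervals of the last pair overlapped, and those of the 3 shorter classes did not. When peaks had to be at least 1 kb wide the share of main genes fell to 56.8%. Taking the annotated start nearest to the edge of 1 wide interval per gene, it was 55.2%. That interval was the one with the lowest coordinate, so in minus-strand genes with several it was the farthest from the start.

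The marks overlapped little in length. Of the 3067 wide intervals, 576 (18.8%) [17.4 to 20.2] shared at least 1 bp with an H2A.Z peak, beside 1.70% [1.61 to 1.78] of the 90056 narrower ones. A longer interval meets a peak more easily, and by length H2A.Z peaks covered 0.314% of the wide and 0.351% of the narrower intervals. In 565 of the 576 overlapping pairs of peak and interval the peak lay across the 5′ edge, in 3 across the 3′ edge and in 8 inside. Of the 572 peaks concerned, 570 lay within 1 kb of an annotated start, against 24.7% of all H2A.Z peaks. In the 1503 main genes with H2A.Z at the start, the peak ended before the first wide interval began in 934 (62.1%) and reached or passed that point in 569 (37.9%). The distance from the downstream end of the peak to the 5′ edge had a median of 365 bp (quartiles -226 and 7628 bp).

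At base level, the starts of the 1963 protein-coding main genes over 10 kb were taken. Of these, 68.3% had H2A.Z at 350 bp upstream, 64.0% at 50 bp downstream, 37.1% at 550 bp downstream and 0.560% at 2050 bp downstream. Starts with narrower intervals alone had 74.4% at 50 bp and 50.1% at 550 bp downstream. Around the 5′ edge of the first wide interval, H2A.Z was found at 38.5% of edges 550 bp outside, at 28.8% 50 bp outside, at 25.8% 50 bp inside and at 3.86% 550 bp inside. At the 5′ edge of later wide intervals it did not exceed 0.297% at any position within 5 kb, and at 3′ edges it did not exceed 0.621%. Over all main genes, the share of starts with H2A.Z within 1 kb was 71.9% [69.5 to 74.2] where the first wide interval began 0 to 5 kb past the start. It was 80.4% [74.1 to 85.5] at 5 to 10 kb and 81.0% [76.9 to 84.5] beyond 10 kb. It was 45.8% [32.6 to 59.7] in the 48 genes whose start lay inside the wide interval.

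**Figure D4:**
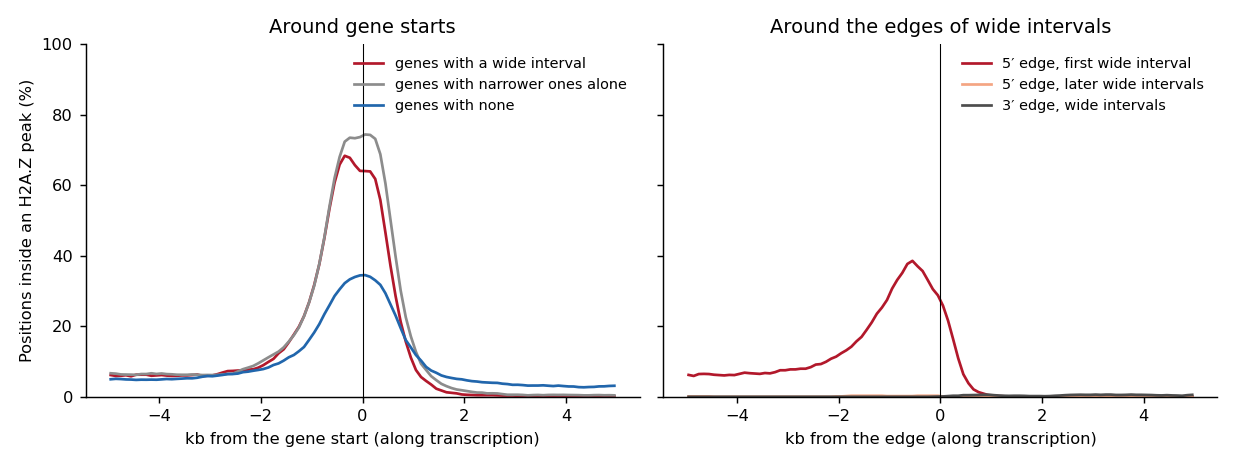
Share of positions inside an H2A.Z peak, in bins of 100 bp along transcription, around gene starts (left, by the intervals the gene holds) and around the edges of wide intervals (right). H2A.Z forms a peak of 68.3% upstream of the starts of protein-coding main genes over 10 kb and of 38.5% outside the first 5′ edge. It stays under 1% at later 5′ edges and at 3′ edges.

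Large stretches of the genome held no interval of either list. This bears on every count of genes without a wide interval, and on the H2A.Z shares that include such genes. There were 1018 stretches over 250 kb with neither mark, 1090.4 Mb in all, and 1223 of the 6246 protein-coding genes over 10 kb with no interval lay in them. The stretch with most protein-coding genes, 171, was chr6:28490691-33481133, which holds the major histocompatibility complex, and another on chromosome 19 held 41 (chr19:54024422-55087371). Genes in such stretches included HNRNPR, NDUFS1, TNKS, LRP6 and TJP1, and, named after their values were seen, HNRNPL and SMARCB1, which encode proteins most cells use. Since the lists hold no read counts, a gene without the mark and a gene whose reads were not usable cannot be told apart there. Both lists also hold intervals on scaffolds outside the chromosomes (16 of H2BK120ub1, none over 10 kb, and 14 of H2A.Z).

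Lists of genes for chromatin, transcription and other functions were then compared with the main genes. They were chosen with earlier results of these data known, and their counts are given beside the 14.5% of all protein-coding genes over 10 kb, with no test of enrichment. Of those 13497 genes, 7251 (53.7%) held an interval of any width, and the 1963 main genes are part of these 7251. In every function list but the neuronal one, 71.4% to 100% of members of any length held an interval, beside 46.9% of all protein-coding genes of any length. A share above 14.5% can thus come from members being marked at all, and was not set against marked genes alone. Several shares fell with a stricter width by more than 1.5 times, as did that of all genes, which was 5.85% over 20 kb. Of 31 genes over 10 kb for H2B ubiquitination and transcript elongation, 22 (71.0%) were main genes. WAC, an adaptor that brings RNF20-RNF40 to RNA polymerase II, was covered over 98.3% of its 90.0 kb by an interval of 88.5 kb (chr10:28533381-28621870). ELL, an elongation factor gene, held 49.7 kb from 0.071 kb past its start, and ATXN7, a subunit of the SAGA deubiquitinase module, held 2 intervals of up to 46.3 kb. MLLT3, at 280.8 kb the longest without one, had 0.825% of its length in intervals, while RTF1 and SUPT6H, which had intervals of up to 8.81 and 9.94 kb, were covered over 41.9% and 63.3%.

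Of 28 histone lysine methyltransferase genes, 15 (53.6%) were main genes. EHMT1, an H3K9 methyltransferase gene, held 6 wide intervals that covered 64.9% of it. EZH2, the catalytic subunit of PRC2, was covered over 84.9% by 3, and NSD2, an H3K36 methyltransferase gene, over 59.4% by 3. SMYD3, of 757.9 kb, had 112 intervals, none over 3.08 kb, and NSD3 (112.6 kb) and SMYD2 (56.0 kb) had none over 5.93 kb. Demethylase genes were main genes in 6 of 18 (33.3%): KDM1A, the lysine demethylase LSD1, held 35.2 kb, and JMJD1C and KDM3B held up to 24.9 and 21.0 kb. KDM4C, KDM6A and KDM4B were the longest without one, and in KDM6A the widest interval was 9.93 kb, just under the limit. Of 8 acetyltransferase genes, 5 were main genes, with 47.8 kb in KAT6A and 43.8 kb in EP300, which encodes p300, beside the 102.2 kb of CREBBP. KAT6B and KAT2B held no interval at all, and KAT6B lay in a stretch without either mark.

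Chromatin remodelling ATPase and SWI/SNF genes were main genes in 16 of 27 (59.3%). ARID1B, a subunit of the BAF complex, held 5 wide intervals of up to 56.4 kb, SMARCC1, a core SWI/SNF subunit, 7 of up to 40.8 kb, and CHD2, a helicase gene, 5 of up to 34.0 kb. CHD9 and ARID2 held narrower ones alone, and SMARCA2, the gene of the BRM ATPase, held none although an H2A.Z peak lay at its start. Cohesin, condensin and SMC genes were main genes in 10 of 23 (43.5%). PDS5A, STAG1 and PDS5B, which encode cohesin subunits and regulators, held intervals of up to 50.6, 44.2 and 41.4 kb. SMC6, NCAPD3 and NCAPG2 were the longest without one, and SMC6 had 3.82% of its length in intervals.

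Some genes of RNA-binding proteins were covered nearly from end to end. Of 20 SR protein and hnRNP genes over 10 kb, 13 (65.0%) were main genes. A single interval covered 97.9% of HNRNPC (57.9 kb, chr14:21211362-21269256), 99.95% of HNRNPM (46.0 kb, chr19:8444996-8491039) and 99.8% of SRSF4 (36.1 kb, chr1:29145699-29181845). The intervals of HNRNPM and SRSF4 ran beyond the gene, with the gene end at -1.93 and -2.04 kb from their 3′ edges. HNRNPLL had 36.4% of its length in narrower intervals, and HNRNPR and SRSF12 had none. Nucleoporin genes were main genes in 9 of 28 (32.1%), with NUP153 (39.1 kb), NUP98 (34.9 kb) and NUP93 (22.2 kb) widest. All 28 carried an interval of some width, as did 53.7% of all protein-coding genes over 10 kb. NUP62 was not a main gene, although a 23.4 kb interval with another main gene covered 98.3% of it. NUP214, NUP210 and NUP155 were the longest without a wide one and had 52.4%, 32.0% and 47.8% of their length in narrower intervals.

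HECT ubiquitin ligase genes were main genes in 11 of 27 (40.7%). UBE3A and TRIP12 held intervals of up to 39.3 and 33.2 kb, while HECW1 and HECW2 had no interval and NEDD4L, of 357.3 kb, had 81 that did not exceed 6.25 kb. WNT pathway genes were main genes in 7 of 24 (29.2%). Beside TCF7L2, GSK3B, the kinase gene of the beta-catenin destruction complex, held 83.9 kb (chr3:120009713-120093611), and 1 interval of 43.3 kb covered 99.9% of CTNNB1, the gene of beta-catenin (chr3:41199554-41242858). TCF7L1 was covered over 17.0% by narrower intervals, and TNKS and LRP6 lay in stretches without either mark.

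DNA damage response and repair genes were main genes in 6 of 33 (18.2%), close to the 14.5% of all genes. PRKDC, the gene of the DNA-dependent protein kinase, held 4 of up to 23.8 kb, MSH6, a mismatch repair gene, 21.0 kb over 88.4% of its transcript, and WRN, a helicase gene, 16.2 kb. MSH3, FANCC and BRIP1 were the longest without one. Genes for nuclear subunits of NADH dehydrogenase, the first complex of the respiratory chain, were main genes in 6 of 21 (28.6%), and in 0 with intervals over 20 kb, with NDUFS4 (19.5 kb), NDUFB9 (18.5 kb, with the gene end at -7.96 kb from its 3′ edge) and NDUFA10 (17.3 kb) widest. NDUFA9 and NDUFA12 held narrower intervals alone, and NDUFS1 held none. None of 28 long neuronal adhesion and synapse genes was a main gene. An interval of any width was carried by 2 of them, against 53.7% of all protein-coding genes over 10 kb. However, 13 of the 28 lay in the stretches without either mark, where absence of the mark cannot be told apart from absence of usable reads. CNTNAP2, PTPRD (in such a stretch) and DLG2, between 2172.2 and 2304.2 kb long, had none.

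Genes with a wide interval in HCT116 were often marked over a long stretch in mouse ES cells too. Of the 1963 protein-coding main genes, 1850 had a mouse gene of the same symbol, and 1446 of these (78.2%) [76.2 to 80.0] met a peak over 10 kb in the H2BK120ub1 list of ES cells, which holds 21676 peaks, 4821 of them over 10 kb. The share was 29.3% over all 11712 genes matched by symbol, 34.5% [33.2 to 35.9] for genes with narrower HCT116 intervals alone and 6.15% [5.52 to 6.84] for those with none. The order held within each class of human gene length: 66.5% against 25.6% at 10 to 25 kb, 78.3% against 37.3% at 25 to 50 kb, 85.5% against 38.8% at 50 to 100 kb and 78.7% against 40.2% above 100 kb, for genes with a wide interval and with narrower ones alone. A mouse gene counted when it met such a peak, while a human gene had to be the main gene of its interval. The mouse list was made separately, so its widths and those of HCT116 are not on 1 scale, and what the shared genes have in common in expression was not measured here.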

How the data were processed

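ChIP-seq of HCT116 cells and mouse ES cells was deposited as lists of interval positions. Of these, 3 lists were used, and no column of sample values was left unused (0). Per the submitters' processing notes and the study's methods, the authors trimmed reads with Trim Galore 0.0.6, mapped them with Bowtie2 2.4.2, kept uniquely mapped reads with SAMtools 1.12, removed duplicates with Picard 2.26.10, called broad peaks against input with MACS2 2.2.6, merged intervals within 500 bp with bedtools and kept those found in all replicates and outside blacklisted regions. Positions are hg38 (mouse: mm10). Joining neighbours and broad calling both set where an interval ends, and a call needs enough reads, so width can depend on depth.

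Intervals were compared with GENCODE 44 in Python 3.11.15 (numpy 2.4.6, pandas 2.3.3, scipy 1.17.1, matplotlib 3.10.9). An overlap needed 1 bp. The main gene was the gene over 3 kb sharing most bp, and positions refer to its Ensembl canonical transcript. The overlap search was tested on simulated data. Mouse genes were matched by symbol. Members and lists were chosen with earlier results of these data known. The genes named were the 10 widest intervals, the 3 genes with most, the 3 widest without a gene, those nearest to 10 kb, and in each list the 3 widest members and up to 3 of the longest without one. A few items that this rule picks, and some sequence, are not reported here. With 1 merged list there was no replicate, and no test was made. Alternatives changed the width, joining, gene set, gene start, H2A.Z window and H2A.Z peak width.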

Additional observations from a re-analysis of the deposited data

How the results depend on the processing

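No paired analysis was possible because the lists are merged and no result comes from a test. Of 147 values recomputed under alternatives, 94 stayed within the counting interval of the reported value (counts: within 1.5 times) and 53 moved. Restricting the intervals to autosomes and widening the H2A.Z window to 2 kb moved none.

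Taking intervals over 15 kb gave 1608 intervals in 1265 genes, and over 20 kb 958 intervals in 808 genes with 32.1 Mb. In the order over 8, 15 and 20 kb, the median distance of the 5′ edge from the gene start was 8887, 1659 and 842 bp, the share beginning 0 to 5 kb past it 42.4%, 51.9% and 57.4%, the share overlapping H2A.Z 16.7%, 23.7% and 26.6%, the share of genes over 10 kb that were main genes 17.9%, 9.16% and 5.85%, and the share with a wide mouse peak 75.3%, 84.1% and 86.5%. With a gene were 99.9% both over 15 and over 20 kb, and the start lay inside 2.19% over 20 kb. The share of list members over 10 kb that were main genes also moved, over 15 and 20 kb, to 48.4% and 41.9% for H2B ubiquitination and elongation, 40% and 25% for SR proteins and hnRNPs and 14.3% and 10.7% for nucleoporins. Over 20 kb it moved to 35.7% for methyltransferases, 22.2% for HECT ligases, 6.06% for DNA repair and 0% for NADH dehydrogenase. Joining within 1 kb gave 4719 intervals and 111 Mb, and within 2 kb 5996 and 174.4 Mb.

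With protein-coding genes alone 98.5% had a gene, and 99.3% when 50% of the interval had to lie in it. Using the ends of the gene record, the median distance was 11225 bp, 41.4% began 0 to 5 kb past the start, 0.948% held it and 90.7% ended before the gene end. Using intervals that meet 1 gene alone, these were 9002 bp, 43.3%, 0.995% and 93.1%. With the annotated start nearest to the edge, the median distance was 208.5 bp and 22.9% held the start. With 1 such start per gene, taken from the wide interval of lowest coordinate, 55.2% had H2A.Z near. H2A.Z peaks of at least 1 kb lay near 56.8% of starts and met 15.5% of intervals, and 62.8% of starts lay inside a peak of any width.

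The lists hold positions alone: no depth and no spread between replicates stands behind these values, and a weaker mark and a missing interval look the same.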
